A study of Sus scrofa with 24 samples.

Results

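7 genes of the kinetochore and of mitosis, BUB1, BUB1B, CENPC, CENPE, CENPF, CENPK and CIT, were the hosts of 14 of the 3000 circular RNAs (circRNAs) in the table of spleen back-splice reads. A circRNA was assigned to a gene when both of its back-splice ends lay within 1 base of exon ends of that RefSeq gene in the Sscrofa11.1 pig genome, on the same strand. The table holds part of the circRNAs that the study identified, and the rule for that choice is not given in the sources used here, so that the number of circRNAs per gene and all shares below refer to the table. The assignment placed 2848 circRNAs on 1675 host genes and used no level of any circRNA. The 7 genes and the gene lists below, however, were chosen with earlier results of these data known. Shares of all circRNAs or host genes set beside their counts are therefore no test of them. The reads came from spleens of 24 Meishan pigs, a Chinese breed, with 3 pigs at each of 8 ages (day 1, 7, 14, 21, 28, 35, 120 or 180 of life, written 1d to 180d) and 1 library per pig. All groups shared the tissue and the breed, no treatment is named, and age was the label that separated them, so that each stage was a different set of animals. Bulk tissue was sequenced, and fewer dividing cells and less of a circRNA per cell cannot be told apart in these values.

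The kinetochore is the protein structure on the centromere that attaches a chromosome to the spindle when a cell divides. CENPC and CENPK belong to its inner layer, CENPE is a motor protein that carries chromosomes along microtubules, and CENPF is a large protein bound to its outer layer. BUB1 and BUB1B (also called BubR1) act in the spindle checkpoint, which holds back the separation of sister chromatids until the chromosomes are attached, and CIT (citron kinase) acts in cytokinesis, the final division of the cell body. A circRNA forms when the end of an exon is spliced back to the start of the same exon or of an exon upstream of it. The spleen holds dividing blood and immune cells beside macrophages and stroma.

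The back-splice junction is the sequence that separates a circRNA from the linear mRNA of its gene, and a read counted here had to cross it. The junctions of BUB1, BUB1B and CIT are shown because the tests below turned on these 3 genes. Each line gives 30 bases of Sscrofa11.1 on the strand of the gene, 5′ to 3′, with the last 15 bases of the donor exon in lower case and the first 15 bases of the acceptor exon in capitals.
BUB1 circRNA_23829: ctctagaagataaagTCCATGAAGACAGGC
BUB1B circRNA_02241: tctccagatgtttgtGACACCATGTAAAAT
BUB1B circRNA_02235: ctaatgagactgcagGATGAATTTACAGGA
BUB1B circRNA_02232: ttaaccataataaagGATGAATTTACAGGA
BUB1B circRNA_02227: gattcttagaaacagGATGAATTTACAGGA
BUB1B circRNA_02226: gattcttagaaacagATGGCCCTCCTCAGT
CIT circRNA_12978: ataacattcgtaactGGGAAACCACCCTTC
CIT circRNA_12983: ataacattcgtaactGTGAATGCCAAACTC
The 3 BUB1B junctions that end in GATGAATTTACAGGA return to the same exon from 3 different donor exons, circRNA_02227 and circRNA_02226 leave from the same donor exon, and both CIT junctions leave from the same donor exon. A read of each of these junctions was therefore distinguished from the others by the side that was not shared.

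BUB1 gave 1 circRNA, circRNA_23829 (chr3:45598494-45607289, plus strand), which spanned exons 9 to 16 of 25 and 1086 nt of exon sequence. All 5 circRNAs of BUB1B lay on the minus strand of chromosome 1 in the central and later exons of its 23. circRNA_02241 (chr1:131111611-131120613) held exons 9 to 14, and the other 4 began at exon 15 or 17. These were circRNA_02235 (chr1:131105040-131106285, exons 15 and 16), circRNA_02232 (chr1:131103657-131106285, exons 15 to 18), circRNA_02227 (chr1:131098976-131106285, exons 15 to 20) and circRNA_02226 (chr1:131098976-131104224, exons 17 to 20). The BUB1B circRNAs thus met between exons 14 and 15, where the donor exon of circRNA_02241 is followed by the acceptor exon of 3 others. In CIT, circRNA_12978 (chr14:33019297-33052881, plus strand) held exons 3 to 9 of 48, and circRNA_12983 (chr14:33051049-33052881) held exons 8 and 9.

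The inner kinetochore gene CENPC gave 2 neighbouring circRNAs on the minus strand, circRNA_35284 (chr8:65301742-65310079, exons 2 to 6 of 20) and circRNA_35273 (chr8:65282756-65290009, exons 7 to 9). circRNA_35284 was the only 1 of the 14 that was not wholly coding, with 43 of its 423 nt in the coding sequence of the transcript used, and it held the start of that coding sequence. CENPK gave circRNA_17759 (chr16:44051153-44051899, minus strand, exons 6 to 8 of 11). Of the motor gene CENPE, circRNA_36000 (chr8:117917334-117919703, plus strand, exons 18 to 20 of 50) and circRNA_36002 (chr8:117919336-117919703, exons 19 and 20) shared their donor exon. CENPF gave circRNA_38552 (chr9:128964166-128964842, minus strand, exons 17 and 18 of 22).

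**Figure D1:**
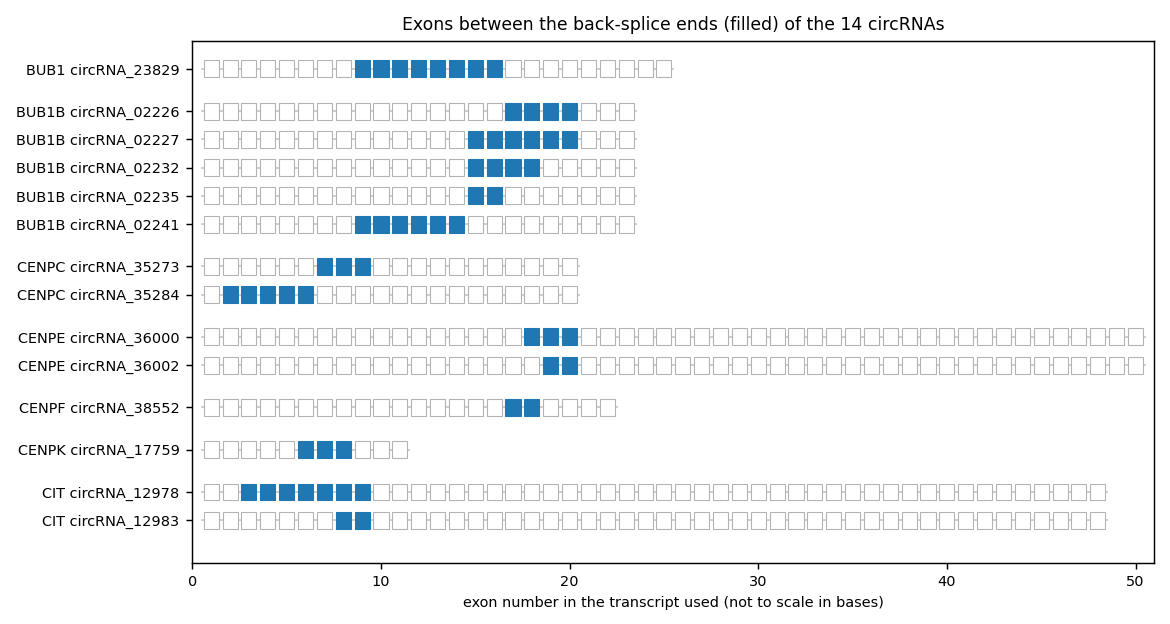
Exons between the back-splice ends (filled boxes) of the 14 circRNAs, on the exon numbers of the transcript used for each host gene, 1 row per circRNA. The 5 BUB1B circRNAs lie on either side of the boundary between exons 14 and 15, and the 2 circRNAs of CENPE, like the 2 of CIT, end at the same exon.

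The 14 circRNAs had a median of 3.5 exons and 479 nt of exon sequence, against 3 exons and 431 nt over the 2844 circRNAs with a full exon chain. Their median GC content was 40.6%, against 43.3% over those 2844. Inverted repeats, which are known to bring back-splice sites together, were looked for as pairs of matching stretches of at least 50 nt and 70% identity between the 1000 bases outside each end. Such a pair stood beside 8 of the 14 (57.1%), against 38.0% of all, and the longest, 263 nt at 87.1% identity, was beside the BUB1 circRNA. These are descriptions of 14 circRNAs of 7 genes that share exons and introns among themselves, and no test was made of them.

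Most values rested on few reads. The 14 circRNAs had 2482 back-splice reads in all, 26 of their 336 values were 0, and the highest value was 34 reads. The smallest count above 0 in the table was 2, so that a 0 can stand for a junction seen in a single read, and the columns of the table summed to 16273 to 87867 back-splice reads per library. BUB1B had 910 of the 2482 reads, CENPC 373, CIT 355, CENPK 263, CENPE 236, BUB1 199 and CENPF 146. A junction read does not depend on the length of the circRNA, but a sum over a gene counts as many junctions as the gene has, so levels were not compared between genes. Values are given as TMM-scaled reads, which are reads relative to the circRNA reads of the same library, as mean ± SD over the 3 pigs of a stage. Where libraries of stages are said to lie apart, the share of all circRNAs or host genes that did so was not counted.

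The checkpoint genes BUB1 and BUB1B fell from day 1 to day 180, with log2 fold changes of -3.31 and -2.36, and both were also lower at day 120. CIT had a called trend with age, and CENPE, CENPF, CENPK and CENPC passed no test. These results are on TMM scaling, and of them the falls of BUB1 and BUB1B at day 180 were also called per clean read, where the trends were not. Of the 7 genes, 5 had their highest mean at day 7 and 6 had their lowest mean at day 180, where 18.1% of all 1675 host genes had their highest mean at day 7 and 18.1% their lowest at day 180. The difference of 7d and 1d was tested after these means had been seen, and 0 of the 7 genes passed in edgeR (and 0 under each alternative), where 0.0597% of host genes did. An unadjusted p under 0.05 in edgeR was reached by 1 of the 7, beside 179 of the 1675 host genes. To be called between 2 stages, a gene needed an adjusted p under 0.05 and a change of 2-fold or more, and in the trend an adjusted p under 0.05. The differences between stages came from 1 edgeR fit over the 24 libraries, and the trend from a separate edgeR fit on log2 of age.

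**Figure D2:**
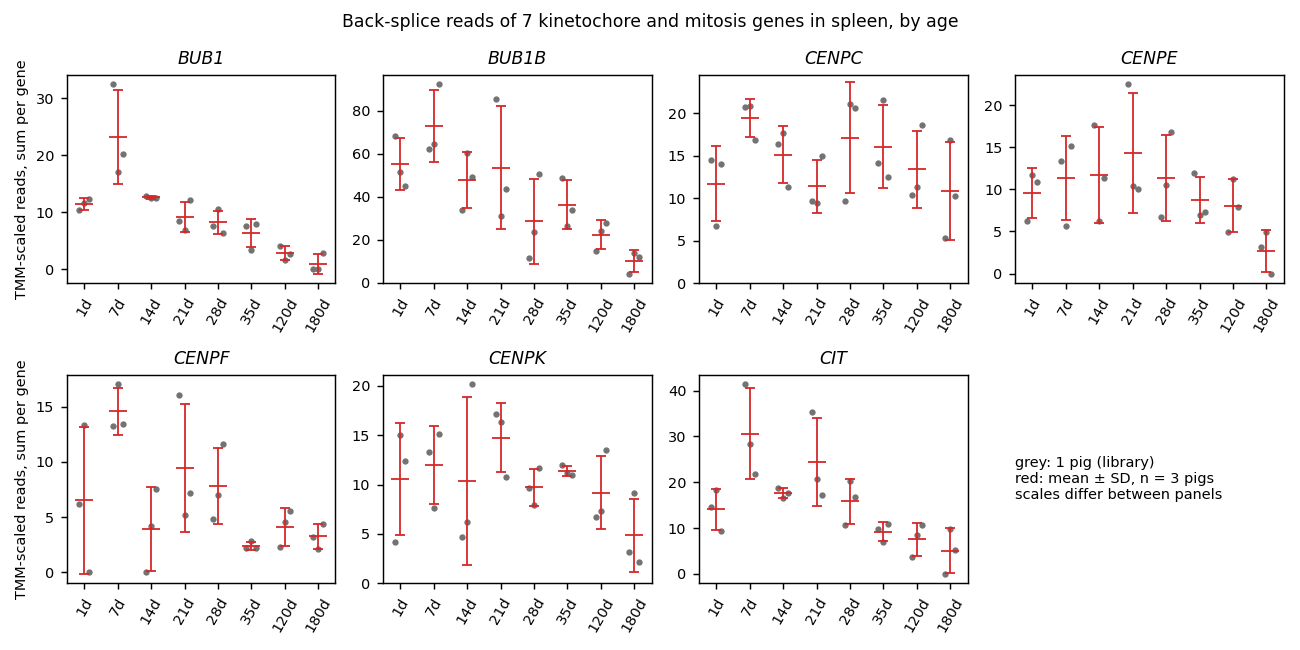
TMM-scaled back-splice reads summed per host gene (vertical axis, a scale of its own in each panel) at 8 ages (horizontal axis), with 1 grey point per pig and the mean ± SD of 3 pigs in red. BUB1 goes from 23.2 at day 7 to 0.980 at day 180, whereas CENPC stays between 10.8 and 19.4.

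BUB1, a kinase of the checkpoint, had the steepest slope of the 7. Its 3 libraries held 10.4, 11.7 and 12.4 TMM-scaled reads at day 1 and 32.5, 17.0 and 20.2 at day 7. They held 12.9, 12.5 and 12.6 at day 14, 8.57, 6.90 and 12.1 at day 21, 7.69, 10.6 and 6.46 at day 28, and 7.59, 3.49 and 8.05 at day 35. At 120d the values were 4.05, 1.69 and 2.79, and at day 180 they were 0, 0 and 2.94. Every 7d library thus lay above every library of another age, and all 6 libraries at day 120 or 180 lay below those from day 1 to day 28.

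The mean of BUB1 was 11.5 ± 1.04 at day 1, 2.84 ± 1.18 at day 120 and 0.980 ± 1.70 at day 180. The log2 fold change was -1.96 (SE 0.63, edgeR adjusted p = 0.0342) for 120d vs. 1d and -3.31 (SE 0.78, adjusted p = 0.00212) for 180d vs. 1d. The slope was -0.41 per doubling of age (SE 0.08, adjusted p = 0.000232). At 7d the mean was 23.2 ± 8.18, a log2 difference of 1.02 from 1d with an SE of 0.57 (adjusted p = 0.534). The fall at day 180 passed in each fit that left out 1 library. The highest edgeR adjusted p of these was 0.0231, without 180d replicate 2 (log2 fold change -2.69), and it was 0.011 without 180d replicate 1. Without 180d replicate 3, the 1 library of that stage with reads, the fitted value of -6.65 was set against libraries at 0 and is no bound. The call at day 120 was lost in 5 of the 6 fits that left out 1 library, with an adjusted p of 0.123 without 120d replicate 2.

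BUB1B, the partner of BUB1 in the checkpoint, gave the most circRNAs of the 7 genes. Summed over its 5 circRNAs, the libraries held 68.4, 51.7 and 45.1 TMM-scaled reads at day 1, 62.1, 64.4 and 92.5 at day 7, 34.0, 60.2 and 49.1 at day 14, and 85.7, 31.0 and 43.6 at day 21. They held 11.5, 23.7 and 50.4 at day 28, 48.8, 26.5 and 33.7 at day 35, 14.9, 24.2 and 27.9 at day 120, and 4.27, 14.0 and 11.8 at day 180. All 6 libraries of 120d and 180d were below the 9 libraries of 1d, 7d and 14d, whereas 28d spread over a range that met both.

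The mean of BUB1B went from 55.1 ± 12.05 at day 1 to 22.3 ± 6.71 at day 120 and 10.02 ± 5.11 at day 180. This was a log2 fold change of -1.29 (SE 0.41, edgeR adjusted p = 0.0391) at day 120 and of -2.36 (SE 0.47, adjusted p = 0.000758) at day 180, with a slope of -0.29 per doubling of age (SE 0.07, adjusted p = 0.00228). The call at day 180 held without each of the 6 libraries in turn, while that at day 120 no longer passed in 4 of these fits, those that dropped replicate 1 or 2 of either stage (adjusted p = 0.0864 to 0.176). The 5 circRNAs of BUB1B were alike in slope: each was called in the age trend, with slopes of -0.25 to -0.28 and adjusted p-values of 0.00625 to 0.0429. 2 of them, circRNA_02232 (log2 fold change -2.59, SE 0.74, adjusted p = 0.0154) and circRNA_02241 (-1.88, SE 0.64, adjusted p = 0.0467), passed in 180d vs. 1d. The call of circRNA_02241 there was lost in each of the 6 fits that left out 1 library, and that of circRNA_02232 in 3 of them. In the trend, leaving out 1 library ended the call of circRNA_02226 in 10 of 24 fits, of circRNA_02227 in 8, of circRNA_02235 in 5, of circRNA_02232 in 1 and of circRNA_02241 in 0.

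circRNA_02241 took 28.8% of the BUB1B reads over all libraries and was read in each of the 24. It held 9.95, 18.1 and 12.1 TMM-scaled reads at day 1, 19.1, 16.4 and 41.5 at day 7, and 4.27, 4.31 and 2.25 at day 180. circRNA_02226 took 23.1%, circRNA_02232 17.7%, circRNA_02227 15.6% and circRNA_02235 14.8% of the reads. The last 4 cover parts of exons 15 to 20. circRNA_02226 held 11.9, 8.23 and 10.5 TMM-scaled reads at day 1, 20.5, 20.1 and 9.58 at day 7, and 0, 4.31 and 2.25 at day 180. circRNA_02227, which leaves from the same donor exon, held 11.9, 6.58 and 9.04 at day 1, 4.40, 7.29 and 15.97 at day 7, and 0, 2.16 and 1.4998 at day 180. circRNA_02235, the shortest in exon number, held 5.97, 9.88 and 4.52 at day 1, 8.80, 9.12 and 12.8 at day 7, and 0, 1.44 and 2.25 at day 180. For each of these 3, 180d replicate 1 had no read, and the log2 fold change in 180d vs. 1d was not called. That library had no read of circRNA_02232 either, which was called there. circRNA_02232 held 8.80, 9.12 and 7.98 TMM-scaled reads at day 7 and 0, 2.16 and 3.75 at day 180. circRNA_02232 differed from the rest in its order of stages, with its highest mean at day 1 (13.9 ± 10.4) rather than at day 7 or 21d, and 1 library of 25.9 beside 8.23 and 7.53 carried that mean. Without that library, 1d replicate 1, it was no longer called in the trend or at day 180.

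CIT, the kinase of cytokinesis, was the third gene with a called trend. Its libraries held 14.5, 18.3 and 9.32 TMM-scaled reads at day 1, 41.4, 28.4 and 21.9 at day 7, 18.8, 16.6 and 17.6 at day 14, and 35.4, 20.7 and 17.1 at day 21. They held 10.6, 20.2 and 16.8 at day 28, 9.76, 6.97 and 10.98 at day 35, 3.60, 8.45 and 10.7 at day 120, and 0, 9.82 and 5.14 at day 180. All 7d libraries were above all 1d libraries, and the 9 libraries from 35d on were below all of 7d, 14d and 21d.

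The slope of CIT was -0.25 per doubling of age (SE 0.08, edgeR adjusted p = 0.0159), and its level differed among the 8 stages (adjusted p = 0.000707). Its log2 fold change in 180d vs. 1d was -1.34 with an SE of 0.57 and did not pass (adjusted p = 0.109), though it did without 180d replicate 2 (-2.20, adjusted p = 0.0302). Of its 2 circRNAs, circRNA_12978 was called in the trend (slope -0.28, SE 0.09, adjusted p = 0.0272) and circRNA_12983 was not (-0.18, SE 0.09, adjusted p = 0.14). The difference between these slopes was not tested. circRNA_12978 had 6.36 ± 1.73 TMM-scaled reads at day 1, 17.2 ± 9.15 at day 7, 14.6 ± 4.53 at day 21 and 1.70 ± 1.80 at day 180. circRNA_12983, the shorter of the pair, had 7.34 ± 3.70, 12.5 ± 13.2, 9.73 ± 4.45 and 3.41 ± 3.25 at the same stages.

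CENPE, the motor of the kinetochore, had 9.59 ± 2.94 TMM-scaled reads at day 1, its highest mean of 14.3 ± 7.12 at day 21 and 2.70 ± 2.49 at day 180. Its libraries held 6.22, 11.7 and 10.9 at day 1 and 3.20, 4.91 and 0 at day 180. The log2 fold change of -1.82 (SE 0.72) did not pass (edgeR adjusted p = 0.0815). It did with DESeq2 (-1.91, adjusted p = 0.0494) and without 180d replicate 2 (-2.76, adjusted p = 0.0392). In 180d vs. 120d, CENPE and BUB1B were the 2 genes of the 7 with an unadjusted p under 0.05 in edgeR. Such a p was reached by 109 of the 1675 host genes, and neither gene was called there on TMM scaling.

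CENPF, of the outer kinetochore, was read at 13.3, 17.0 and 13.4 TMM-scaled reads at day 7, and its 1d libraries spread from 0 to 13.3. Its lowest means were 2.38 ± 0.351 at day 35, 3.24 ± 1.15 at day 180, 3.90 ± 3.78 at day 14 and 4.11 ± 1.70 at day 120. Its slope of -0.20 did not pass (edgeR adjusted p = 0.131), though it did without 1d replicate 3 (-0.27, adjusted p = 0.0277), and a difference among the 8 stages was called with DESeq2 (adjusted p = 0.0141).

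The inner kinetochore genes showed the smallest slopes. CENPK had 10.5 ± 5.67 TMM-scaled reads at day 1, 14.7 ± 3.51 at day 21 and 4.84 ± 3.74 at day 180, with a slope of -0.10 (edgeR adjusted p = 0.274). CENPC had 11.7 ± 4.39 at day 1, 19.4 ± 2.28 at day 7, 13.4 ± 4.51 at day 120 and 10.8 ± 5.77 at day 180, with a slope of -0.03 (adjusted p = 0.787) and a log2 fold change of -0.05 (SE 0.50, adjusted p = 0.959) in 180d vs. 1d. Its circRNA_35284, with 282 reads the most read of the 14, had 7.96, 6.58 and 10.5 TMM-scaled reads at day 1 and 3.20, 15.1 and 7.50 at day 180, so that the stages overlapped. Whether the slope of CENPC differed from those of the other 6 genes was not tested.

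Counted as circRNAs, 7 of the 14 were called in the age trend, all lower with age, where 16.5% of the 3000 were called and 5.77% were called lower. They were the 5 of BUB1B, circRNA_12978 of CIT and circRNA_23829 of BUB1. Per clean read 0 of these 7 were called, and circRNA_35284 of CENPC was called higher (slope 0.24, edgeR adjusted p = 0.00455), where 64.6% of the 3000 were called higher and the median slope was 0.25. Leaving out 1 library ended the trend call of circRNA_12978 in 4 of 24 fits and of circRNA_23829 in 0. In 180d vs. 1d, 3 of the 14 were called, all lower (circRNA_02232, circRNA_02241 and circRNA_23829), against 9.3% of the table called and 3.4% called lower. In 120d vs. 1d, 0 of the 14 were called by edgeR, against 6.1% called and 1.47% called lower. There 2 of the 14 and 588 of the 3000 had an unadjusted p under 0.05 in edgeR, and 2 of the 14 and 178 of the 3000 were called by DESeq2. In 180d vs. 120d, 0 of the 14 and 0% of the table were called by edgeR, with 0 of the 14 and 145 of the table at an unadjusted p under 0.05 and 0 of the 14 called by DESeq2. A difference among any of the 8 stages was called for 3 of the 14 (circRNA_02241, circRNA_12978 and circRNA_23829), against 8.97%.

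Summed per gene, 3 of the 7 were called lower in the trend (BUB1, BUB1B and CIT), where 23.2% of 1675 host genes were called and 9.37% were called lower. In both 120d vs. 1d and 180d vs. 1d, BUB1 and BUB1B were called lower, against 7.82% and 11.9% of host genes called and 2.81% and 5.19% called lower. The same 3 genes as in the trend differed among the 8 stages, against 14.4%. In 180d vs. 120d, 0 of the 7 and 0% of host genes were called by edgeR. The median log2 fold change of the 7 genes was -1.34 in 180d vs. 1d, beside 0.15 over all host genes, and the median slope was -0.20 beside 0.02.

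**Figure D3:**
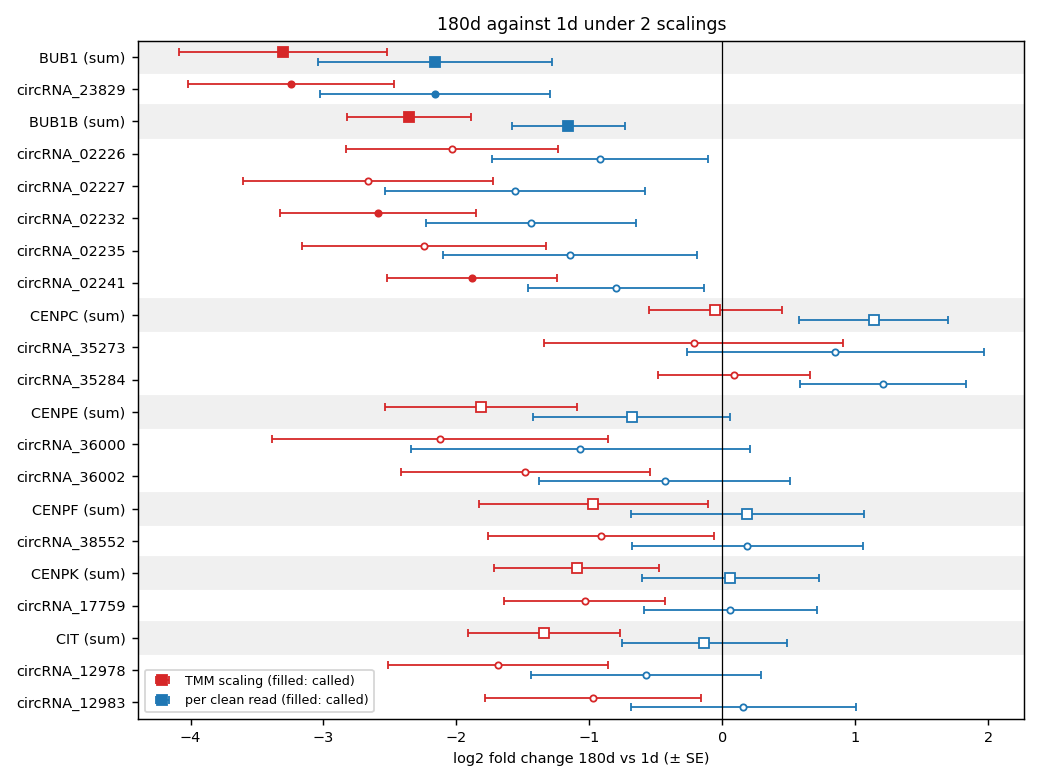
Log2 fold change of 180d vs. 1d (horizontal axis, ± SE) of the 7 gene sums (squares, shaded rows) and the 14 circRNAs (circles), with TMM scaling in red and per clean read in blue, filled where called. BUB1 and BUB1B lie below 0 and are filled on both scales, while CENPC lies at -0.05 and 1.14, and CENPF and CENPK change sign.

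The direction of most of these genes depended on what the reads were counted against. The study's methods name RNase R, an enzyme that digests linear RNA, and the labels do not, so whether it was used was not settled, and all values per clean read depend on it. Counted as RPM (back-splice reads in 1000000 clean reads), all circRNAs of the table together had 183 ± 31.6 at day 1, 754 ± 115 at day 120 and 469 ± 94.5 at day 180. The 14 circRNAs took 0.340% ± 0.0498 of the table at day 1, 0.504% ± 0.0535 at day 7, 0.169% ± 0.0489 at day 120 and 0.0931% ± 0.0457 at day 180. Their RPM was 0.612 ± 0.0592 at day 1, 1.03 ± 0.210 at day 7, 1.29 ± 0.512 at day 120 and 0.462 ± 0.285 at day 180. Their mean share of the circRNA reads was therefore lower at day 120 than at day 1, while their mean RPM was higher. At day 180 both means were lower than at day 1, but the RPM of the 2 stages overlapped. It was 0.175, 0.744 and 0.467 in replicates 1 to 3 of 180d and 0.557, 0.675 and 0.604 in those of 1d. The value of 180d replicate 2 was thus above all of 1d, and replicate 1 had the lowest.

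**Figure D4:**
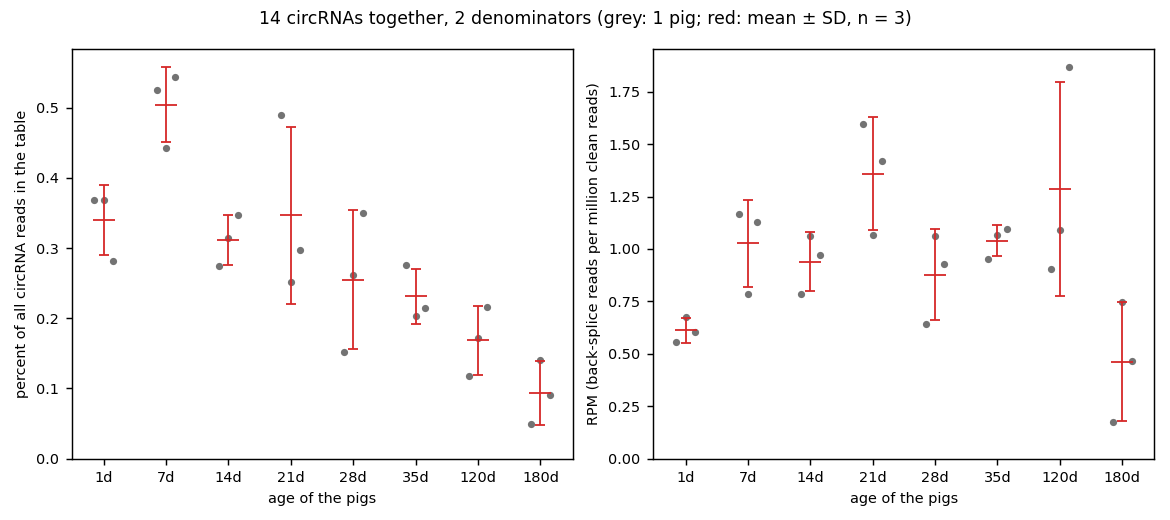
Back-splice reads of the 14 circRNAs together at 8 ages (horizontal axis), as a percent of all circRNA reads in the table (left) and as RPM (right), with 1 grey point per pig and mean ± SD of 3 pigs in red. At 120d the share is 0.169%, below the 0.340% of 1d, while the RPM is 1.29, above the 0.612 of 1d.

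With the clean reads of each library as its depth, the median log2 fold change of all host genes was 1.30 in 180d vs. 1d and 2.002 in 120d vs. 1d, and the median slope was 0.26. Of the host genes called in the trend, 157 of 388 were lower with age on TMM scaling, 212 of 388 with the table totals as depth and 5 of 1225 per clean read, and in 180d vs. 1d these were 87 of 199, 108 of 191 and 17 of 730. BUB1 and BUB1B were still called lower in 180d vs. 1d on that scale, by a log2 fold change of -2.16 (SE 0.88, edgeR adjusted p = 0.0391) and -1.16 (SE 0.43, adjusted p = 0.0227), where 1.01% of all host genes were called lower. BUB1 had an RPM of 0.0600 ± 0.0129 at day 1, 0.131 ± 0.0563 at day 7, 0.0549 ± 0.0260 at day 120 and 0.0124 ± 0.0215 at day 180. BUB1B had an RPM of 0.280 ± 0.0235 at day 1, 0.522 ± 0.186 at day 21, 0.423 ± 0.160 at day 120 and 0.124 ± 0.0757 at day 180. Neither was lower at day 120 than at day 1 beyond its error (log2 fold changes -0.13 and 0.59), and the fall to 180d was called from 120d for BUB1B (-1.75, adjusted p = 0.0108) and CENPE (-2.20, adjusted p = 0.0406). In that comparison 5.25% of all host genes were called lower per clean read, with a median log2 fold change of -0.71.

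The trend with age held for none of the 3 genes per clean read, with slopes of -0.18 for BUB1, -0.04 for BUB1B and 0.0035 for CIT (edgeR adjusted p = 0.0875, 0.549 and 0.97). CENPC was the 1 gene of the 7 called in that trend and it was higher with age, with a slope of 0.23 (adjusted p = 0.00282), close to the median of all host genes, of which 72.8% were called higher and 0.299% lower. In 120d vs. 1d, CENPC, CENPE and CENPK were called higher per clean read (log2 fold changes 2.08, 1.51 and 1.62), beside 75% of all host genes called higher. Relative to that shift, the 7 genes lay below the median of all host genes in 120d vs. 1d on both scales, except CENPC, which lay above it on both.

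Libraries also differed in the share of valid bases left after trimming, which was under 0.96 in 7 libraries, 1 of 21d and 2 each of 35d, 120d and 180d. With that share as a covariate the slopes were -0.36 for BUB1 (edgeR adjusted p = 0.00668), -0.29 for BUB1B (0.0172) and -0.22 for CIT (0.1), and 2 of the 14 circRNAs were called in the trend. Within the 17 other libraries the slopes were -0.29, -0.27 and -0.21 (adjusted p = 0.0628, 0.128 and 0.3), and within the 7 libraries they were -0.90, -0.41 and -0.24 (0.125, 0.116 and 0.615). All were negative, and none of the 6 within-class slopes passed. Of all 1675 host genes the trend called 111 within the 17 libraries and 5 within the 7, so few genes of any kind passed there. 1 library of 180d was among the 17, so 180d vs. 1d was not read within them.

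The library of 180d among the 17, replicate 1, had 18 reads of the 14 circRNAs and 8 of the 14 at 0, where the others of 180d had 81 and 50 reads. Its total of 37023 circRNA reads in the table was the lowest of that stage but not of the series. Without it the log2 fold change in 180d vs. 1d was -2.91 (edgeR adjusted p = 0.011) for BUB1, -2.07 (0.00445) for BUB1B and -0.88 (0.317) for CIT.

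Other genes of the kinetochore and of mitosis were taken from a list of 123, of which 21 had a circRNA in the table. On TMM scaling 9 of the 21 were called lower in the age trend and 0 higher, against the 9.37% of all host genes called lower: KIF11, NCAPG2, SMC4, HMMR, KNL1, MELK, SGO1, TPX2 and FOXM1. All but FOXM1 were also called lower in 180d vs. 1d, 8 of the 21 against 5.19% of all host genes. The other 12, which include CDC27, CENPH, TOP2A and TTK, passed in neither. The median slope of the 21 was -0.15, and all 21 slopes were below 0. But per clean read 0 were called lower and CDC27 was called higher, where 0.299% of all host genes were called lower and 72.8% higher. The median slope of the 21 was then 0.10, beside 0.26 over all host genes. In 180d vs. 1d per clean read 1 of the 21, SGO1, was called lower and 0 higher, where 1.01% of all host genes were called lower and 42.6% higher. There 11 of the 21 fold changes were below 0, and the median log2 fold change was -0.013 beside 1.30 over all host genes.

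The 4 of these with the smallest p in the trend were KIF11, NCAPG2, SMC4 and HMMR. KIF11, the motor that pushes the spindle poles apart, had 13.2 ± 2.05 TMM-scaled reads at day 1, 24.9 ± 6.33 at day 7 and 2.74 ± 0.501 at day 180 (slope -0.36, edgeR adjusted p = 0.000183). HMMR, a protein of the spindle, had 88.2 ± 26.8 at day 1, 189 ± 37.7 at day 7 and 24.02 ± 7.18 at day 180 (slope -0.33, adjusted p = 0.00432). The condensin genes NCAPG2 and SMC4, whose products compact chromosomes, had 11.3 ± 2.82 and 47.6 ± 13.9 at day 1, 10.6 ± 5.39 and 69.8 ± 5.64 at day 7, and 0.980 ± 1.70 and 22.4 ± 5.92 at day 180. Per clean read the slopes of KIF11, HMMR and NCAPG2 stayed below 0 and that of SMC4 was 0.08, and none of the 4 passed.

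Of 66 genes of DNA replication, the step of the cell cycle before mitosis, 13 had a circRNA in the table. On TMM scaling 5 were called lower with age (MCM6, DTL, ATAD2, ATAD5 and WDHD1) and RFC1 was called higher, with a median slope of -0.13, where 9.37% of all host genes were called lower and 13.8% higher. Per clean read 0 of the 13 were lower and 5 higher, where 72.8% of all host genes were called higher, and the median slope was 0.11. MCM6, a subunit of the replicative helicase, had 42.1 ± 10.4 TMM-scaled reads at day 1, 44.8 ± 4.58 at day 7 and 5.07 ± 3.95 at day 180. DTL, which marks replication proteins for degradation, had 32.5 ± 6.53, 63.4 ± 1.10 and 5.84 ± 1.41 at these stages. ATAD2, a chromatin-bound ATPase, had 116 ± 7.30, 184 ± 3.49 and 65.9 ± 3.12. In 180d vs. 1d per clean read, MCM6 (-1.81, edgeR adjusted p = 0.00236) and DTL (-1.31, adjusted p = 0.0255) were still called lower, and ATAD2 was at 0.33. Another 2 of the 13 were called higher there, and the median log2 fold change of the 13 was 0.18. Of all host genes 1.01% were called lower and 42.6% higher, with a median of 1.30.

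**Figure D5:**
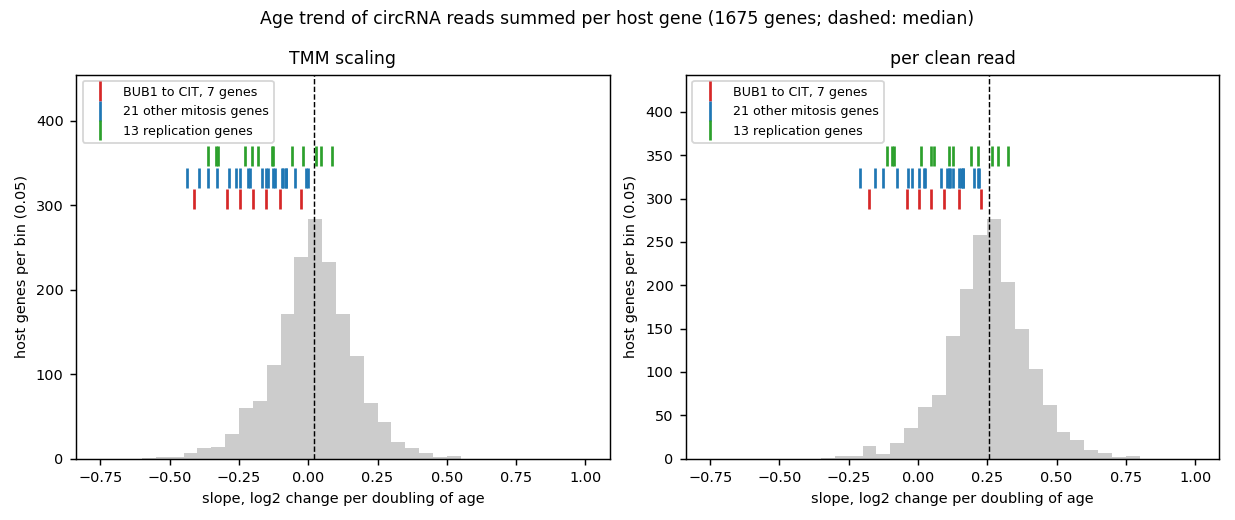
Slope of circRNA reads per host gene on log2 of age (horizontal axis, log2 change per doubling of age) for 1675 host genes (grey bars, genes per bin) with TMM scaling (left) and per clean read (right), with ticks for the 7 genes (red), 21 other mitosis genes (blue) and 13 replication genes (green). With TMM the 7 lie between -0.41 and -0.03 around a median of all genes of 0.02, and per clean read between -0.18 and 0.23 with a median of 0.26.

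Markers of the cell types of the spleen were sparse among circRNA hosts, and a gene with no circRNA in the table says nothing of its own expression. Of 18 erythroid genes 2 were hosts, and HBA1, HBB and ALAS2 were not among them. TFRC, the transferrin receptor, had 49.4 ± 15.2 TMM-scaled reads at day 1, 85.4 ± 10.6 at day 7 and 4.87 ± 6.69 at day 180 (slope -0.49, edgeR adjusted p = 0.00138). It is also expressed by other dividing cells. Per clean read TFRC was still called lower with age (slope -0.26, edgeR adjusted p = 0.00842), 1 of 5 host genes called lower on that scale. EPB41, of the red cell membrane skeleton, had 78.2 ± 9.42 at day 1 and 49.2 ± 4.81 at day 180 (slope -0.08, adjusted p = 0.0336), but per clean read its slope was 0.16 (adjusted p = 0.00156).

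Of 16 B lymphoid genes 3 were hosts, and BANK1 (slope 0.39, edgeR adjusted p = 0.000245) and RALGPS2 (0.31, adjusted p = 0.00923) rose with age, while AFF3 was at 0.09 (adjusted p = 0.256). CTSS, the 1 host among 14 macrophage genes, rose as well (0.33, adjusted p = 3.78e-07). These slopes are on TMM scaling, where 13.8% of all host genes were called higher. Per clean read all 3 B lymphoid genes and CTSS were called higher, beside 72.8% of all host genes. The summed level of the 2 erythroid genes ranged from 112 to 149 TMM-scaled reads at day 1, from 133 to 173 at day 7 and from 45.9 to 59.5 at day 180. That of the 3 B lymphoid genes, with no MS4A1 or CD79A among them, ranged from 18.3 to 35.7 at day 1 and from 41.2 to 96.8 at day 180, and CTSS from 10.001 to 15.5 and from 46.9 to 80.7. None of the 18 T and NK cell genes and none of the 9 genes of spleen stroma and endothelium, TLX1 and NKX2-5 included, was a host, so the labelled tissue could not be checked against them. The part of a changing make-up of cells in the levels of the 7 genes was not tested.

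The levels of the 7 genes moved together over the 24 libraries to different degrees. Pearson's r of log2 CPM between 2 of them had a median of 0.474 over the 21 pairs, from 0.0644 for CENPC and CENPF to 0.814 for BUB1B and CIT, with 0.777 for BUB1 and BUB1B. Each pair shares the libraries, their depth and their ages, and low counts lower r, so these values describe these samples only. Among host genes whose mean reached 10 TMM-scaled reads, the pattern of BUB1 was most like that of NSD2 (r = 0.889), that of BUB1B like ZRANB1 (0.926) and that of CIT like FANCM (0.894). CENPE was most like RBL1 (0.735), CENPF like VRK1 (0.773), CENPK like FIP1L1 (0.658) and CENPC like ATXN2L (0.597). The sum of the 7 was most like RBL1 (0.937), ZRANB1 (0.921) and EZH2 (0.907). All of these r were over 24 libraries.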

How the data were processed

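The authors' processing notes name FastQC, cutadapt and TopHat2, and the study's methods BWA and CIRI2 on Sscrofa11.1, which called circRNAs from reads across GT-AG back-splices. The labels and the study's methods name different extraction and library kits, the methods with RNase R and the labels without. Which was used was not settled, and reads per clean read depend on it. The deposited values are raw counts of back-splice reads for 3000 circRNAs, with 1 column per pig and 0 counts of 1. They are part of the circRNAs the study identified, chosen by a rule not given in the sources used here. Table totals ran from 16273 to 87867 reads, so single values carry large counting error. The members and gene lists were chosen with earlier results of these data known.

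Counts per circRNA (3000) and summed per host gene (1675) were fitted over the 24 libraries with edgeR 4.0.16 in R 4.3.3 (TMM, robust glmQLFit and glmQLFTest, no filter). Differences between stages came from a fit with a coefficient per stage. The trend came from a separate fit, with its own estimate of the spread. Two-sided p-values were adjusted by Benjamini-Hochberg over the whole table. A trend used the slope on log2 of age in days, SE was the absolute estimate over the root of F, and a TMM-scaled count was the count over the library's effective size, times the geometric mean of these sizes. The scaled counts of circRNAs and of gene sums came from separate TMM factors. Values at some or all stages were given for the 5 circRNAs with the highest mean and those with any call, as the gene sum for BUB1 and CENPK. Of the mitosis, replication and cell type lists the 4, 3 and 2 genes with the smallest trend p were named. Alternatives were DESeq2 1.42.0, other scalings, filterByExpr, covariates, thinning, library subsets and leave-one-out. The clean reads and valid bases per library were those the study lists. Repeats were found with BLAST 2.17.0. The fits were tested on simulated data, and no pair of libraries held identical values.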

Additional observations from a re-analysis of the deposited data

How the results depend on the processing

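The fall of BUB1 and BUB1B in 180d vs. 1d kept its direction and its call under the 15 alternatives that held at least 2 libraries of each stage, and both also differed among the 8 stages under each of 33 such alternatives. The 17 libraries with valid bases of at least 0.96 hold 1 library each of 35d, 120d and 180d, whose spread is taken from the other stages, so their counts below for 120d or 180d vs. 1d support nothing. The depth limits the rest: 14 circRNAs with 2482 reads give wide errors, and the table holds no count of 1. Of the 14 circRNAs, the number with a difference among the stages (3) was 7 with DESeq2, which called 443 of the 3000 against 269 in edgeR with TMM. The number in the age trend (7) was 1 with clean reads, 2 with valid bases as a covariate, 2 after thinning, and 0 within either class of valid bases (the lower class was added after seeing the data, and both hold fewer libraries). Of the 3000, the trend called 495 in edgeR with TMM, 1943 with clean reads, 265 with valid bases as a covariate and 246 after thinning. It called 117 of them within valid bases of at least 0.96 and 2 within valid bases under 0.96. In 120d vs. 1d (0) the number of the 14 was 1 with DESeq2 size factors, with table totals and with filterByExpr, and 2 with DESeq2. Over all circRNAs tested these settings called 143, 134, 149 (of 1848) and 178, against 183 in edgeR with TMM. With clean reads it was 2 of the 14, both higher at day 120 (circRNA_17759 and circRNA_35284, where 65.6% of the 3000 were called higher). In 180d vs. 1d (3) it was 1 with clean reads and within valid bases of at least 0.96. With clean reads 1009 of the 3000 were called in 180d vs. 1d, against 279 with TMM. Of the 7 genes, clean reads gave 5 (of 3) among the stages, 1 (of 3) in the trend and 2 (of 0) in 180d vs. 120d. Over all 1675 host genes these numbers were 1060 (of 242), 1225 (of 388) and 88 (of 0). The trend gave 0 of the 7 within either class of valid bases, where it called 111 of the 1675 host genes in the higher class and 5 in the lower. In 120d vs. 1d (2) the genes were 0 with valid bases as a covariate and within valid bases of at least 0.96, and 1 with library GC as a covariate and after thinning.

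Leaving out each library in turn gave 2 to 4 circRNAs among the stages, 3 to 8 in the trend (3 without 180d replicate 1 or 3), 0 in 120d vs. 1d and 1 to 2 in 180d vs. 1d, the lower number in the fits that dropped 180d replicate 1, 180d replicate 2 or 1d replicate 1. Of the genes it gave 3 among the stages, 3 to 4 in the trend, 0 to 1 in 120d vs. 1d (the lower number in the fits that dropped 1d replicate 1, 1d replicate 2 or 120d replicate 2) and 2 to 4 in 180d vs. 1d (4 without 180d replicate 2). The cause of these changes was not tested.

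Directions turned mainly with clean reads as depth, which moved the median of all host genes. The slopes were then 0.23 for CENPC, 0.094 for CENPE, 0.046 for CENPF, 0.15 for CENPK and 0.0035 for CIT. In 120d vs. 1d the log2 fold changes were 0.59 for BUB1B, 1.51 for CENPE, 1.21 for CENPF, 1.62 for CENPK and 0.98 for CIT, and in 180d vs. 1d they were 1.14 for CENPC, 0.19 for CENPF and 0.059 for CENPK. CENPC in 120d vs. 1d (0.21) turned to -0.32 with valid bases as a covariate, -0.19 within valid bases of at least 0.96 and -0.31 after thinning, and CENPK (-0.23) to 0.22 with library GC as a covariate. Leaving out 1 library gave -0.11 to 0.38 for CENPC, -1.27 to 0.55 for CENPF and -0.62 to 0.083 for CENPK in 120d vs. 1d, and -0.52 to 0.22 for CENPC and -1.60 to 0.22 for CENPF in 180d vs. 1d. None of these 5 passed in any such fit. Host genes called over all 1675 ran from 5 to 1225 (388) in the trend, 58 to 730 (199) in 180d vs. 1d, 50 to 1257 (131) in 120d vs. 1d and 2 to 1060 (242) among the stages, and circRNAs from 2 to 1943 (495), 55 to 1009 (279), 56 to 1972 (183) and 0 to 1515 (269).

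The replicate numbers of the labels were shared between stages but did not pair the pigs, which were different animals. Of 84 pairs of libraries with the same number 1 had deviations correlated over 0.1, and 9 of 24 libraries correlated best with their own number. With the replicate number as a block, 3 of the 14 circRNAs were called among the stages, 7 in the trend, 2 in 180d vs. 1d (circRNA_02241 then had an adjusted p of 0.0546) and 0 in the other 3 comparisons, and of the 7 genes 3 were called among the stages, 3 in the trend, 2 each in 120d vs. 1d and 180d vs. 1d and 0 in the other 2 comparisons.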
